A study of Mus musculus with 9 samples.

Results

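Hnrnpk and the 4 genes of its poly(C)-binding family (Pcbp1, Pcbp2, Pcbp3 and Pcbp4) were followed through the reprogramming of mouse fibroblasts. The members were taken by gene symbol from the deposited table of normalized signal, and all 5 were present among its 12550 genes. The cells were mouse embryonic fibroblasts (MEFs) of the C57Bl/6cJ strain, in which plasmids carried Oct4, Sox2, Klf4 and c-Myc to drive conversion to induced pluripotent cells. One arm carried a short hairpin RNA against Hnrnpk, another a hairpin against lincRNA-p21 (gene symbol Trp53cor1), and the control arm a hairpin against luciferase, a gene that mouse cells lack. All 3 arms received the same reprogramming plasmids, had their hairpins delivered in pretroSuper constructs, and grew in mouse embryonic stem cell medium with leukemia inhibitory factor. Total RNA was sequenced on days 6, 9 and 12, which gave 1 library for each arm and day and 9 in all. The labels call every library merged replicates and give 1 hairpin arm for each target, so the effect of a target and that of its hairpin cannot be told apart.

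The proteins of this family bind runs of cytosine in RNA and single-stranded DNA through KH domains, short RNA-binding folds named after hnRNP K itself. hnRNP K takes part in transcription, splicing, mRNA stability and translation, and in the mouse p53 response it was described as the protein partner through which lincRNA-p21 represses genes. PCBP1 and PCBP2 bind C-rich mRNA elements, and both also serve as iron chaperones that hand iron to ferritin. The comparisons below address how deep the Hnrnpk knockdown was, how it held over the days, and whether any paralog was higher where Hnrnpk was low.

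In the mouse genome build GRCm38, with GENCODE M21 as the annotation, the 5 genes lie on 5 chromosomes. Hnrnpk occupies chr13:58391142-58403343 on the minus strand, with 16 exons in its principal transcript. Pcbp1 is an intronless gene at chr6:86524492-86526321 on the minus strand. Pcbp2 lies at chr15:102470539-102500061 on the plus strand and has 14 exons. Pcbp3 spans chr10:76761857-76961887 on the minus strand with 16 exons, and Pcbp4 lies at chr9:106453291-106464012 on the plus strand with 13 exons.

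Because a hairpin acts by base pairing and short reads are assigned by sequence, the stretches that the family members share were searched first. Hnrnpk shared no window of 19 bases, the usual length of a hairpin's guide stem, with any coding transcript of a paralog (0 of 4666 windows for each of the 4). Between principal transcripts, its longest coding stretch identical to a paralog was 11 bases. The sequence of the hairpin itself was not used here. One of these 11-base stretches, shared with Pcbp2, is shown for its length beside the longest coding run that the principal transcripts of Pcbp1 and Pcbp2 share. The first lies in exon 4 of Hnrnpk (chr13:58399187-58399197, minus strand) and exon 6 of Pcbp2 (chr15:102478709-102478719, plus strand). The other lies in the single exon of Pcbp1 (chr6:86525257-86525279, minus strand) and in exon 9 of Pcbp2 (chr15:102486017-102486039, plus strand). Both are coding sequence, written 5′ to 3′ on the strand of the gene, and no base is capitalised because the whole run is the shared part.
Hnrnpk and Pcbp2: attggaaaagg
Pcbp1 and Pcbp2: gacctggagggaccacctctaga
Pcbp1 and Pcbp2 shared 36 windows of 19 bases and 3 of 31 bases over the whole length of all their coding transcripts, not only the principal ones. Hnrnpk shared 22.4% of its 31-base windows with the processed pseudogene Gm7964 and 9.56% with the pseudogene Gm4130, neither of which is a row of the table. Reads from those copies cannot be told apart from reads of Hnrnpk within those windows.

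The values are the authors' normalized signal, whose column totals differ by 0.025% across libraries. Read depth cannot be had from these values, so no counting interval is given. All 10 fibroblast markers (collagens, Vim, Thy1 and others) were in the table, with summed signal between 226570 and 381845.5 with the Hnrnpk hairpin, 277908.5 and 397836 with the lincRNA-p21 hairpin, and 289318.5 and 348250.5 with the luciferase hairpin. None of them was at 0 in any library. Col1a2 was at 118715, the highest value of every column, in all lincRNA-p21 and luciferase libraries and in the Hnrnpk library of day 6. The sums cannot show differences in Col1a2 between those libraries. Of the markers of other cell types, 2 of 6 for macrophages and 1 of 5 for endothelium were in the table. Summed pluripotency markers on day 12 stood at 11040 with the Hnrnpk hairpin, 6984 with the lincRNA-p21 hairpin and 1234.5 with the luciferase hairpin, and on day 6 at 384, 353.5 and 378.5 in the same order of arms. Since each library is RNA from a whole culture, fewer cells of a type and less RNA per cell cannot be told apart.

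Hnrnpk was lower in every library of the Hnrnpk hairpin arm than in any library of the other arms. Its signal on days 6, 9 and 12 was 11349, 17016 and 12793 with the Hnrnpk hairpin, 31142, 29972 and 27873 with the lincRNA-p21 hairpin, and 31243, 26944 and 23376 with the luciferase hairpin. The highest value of the knockdown arm lay below the lowest control value, so the arms did not overlap, as was so below luciferase for 8.52% of all genes and below both other arms for 3.96%. Relative to the luciferase library of the same day, the knockdown arm held 36.3% of the signal on day 6, 63.2% on day 9 and 54.7% on day 12. The remaining message was still abundant, ranking 273, 162 and 237 by signal among all genes of its library, against 62, 84 and 103 in the luciferase libraries.

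**Figure D1:**
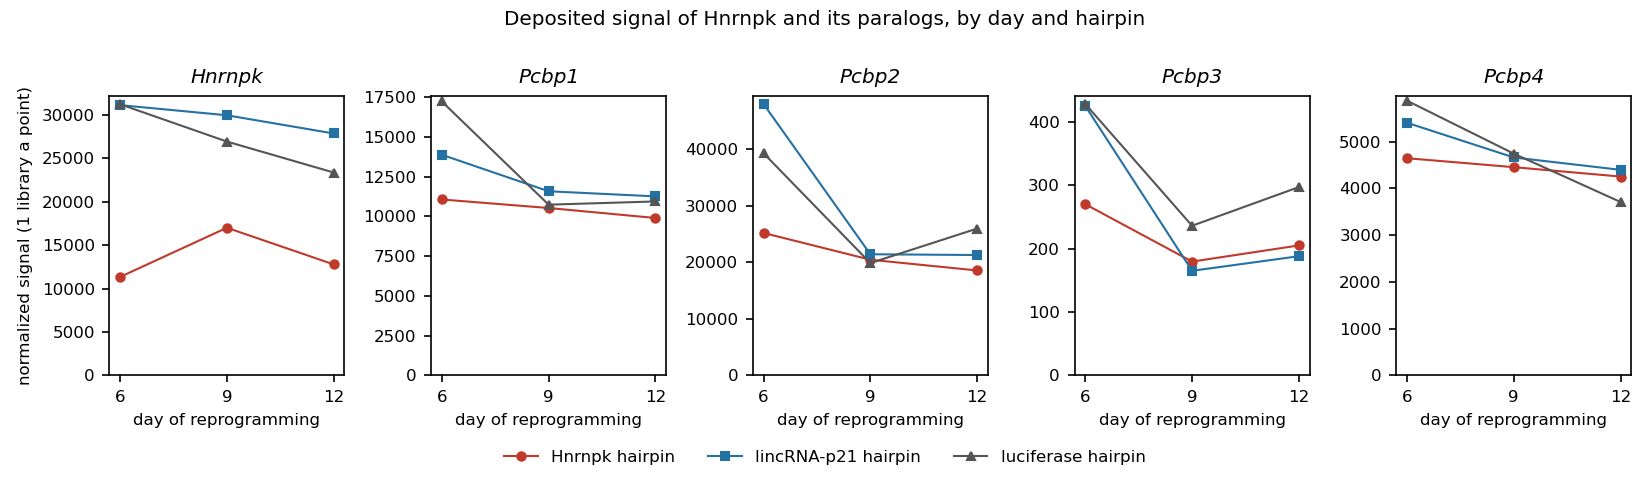
Normalized signal (vertical axes from 0, separate scale for each gene) against day of reprogramming for the 5 genes, with 1 library a point and a colour for each hairpin arm. The Hnrnpk line of the Hnrnpk arm stays between 11349 and 17016, under both other arms. Pcbp1 is also lowest in the Hnrnpk arm on each day, and the Hnrnpk arm lies above another arm on at least 1 day for Pcbp2, Pcbp3 and Pcbp4.

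The difference was tested with limma on log2 of the signal with 10 added, in a model with terms for arm and day, so the error is how far an arm difference varied between days. Hnrnpk fell by 0.997 (SE 0.16, 95% interval -1.37 to -0.63) with the Hnrnpk hairpin relative to the luciferase arm, a fold of 0.501 with an interval of 0.387 to 0.648. limma's adjusted p (Benjamini-Hochberg over 12541 genes) was 0.00824, and the difference was negative on 3 of 3 days, as for 23.4% of all genes. In this comparison 12.5% of all genes were called and 6.94% of all genes were called lower, and Hnrnpk ranked 129 by size of its fall. Against the lincRNA-p21 arm, where 3.26% of genes were called (1.7% of all genes as lower), Hnrnpk fell by 1.13 (SE 0.16, limma adjusted p 0.0141). The call against luciferase held in all 9 fits that left out 1 library. It was lost without day 9 (-1.17, limma adjusted p 0.0756) and without day 12 (-1.06, limma adjusted p 0.0531), when calls over the whole table numbered 25 and 367, against 1570 in the full model. It was also lost with day left out of the model (limma adjusted p 0.0979) or with only the 2 arms fitted (limma adjusted p 0.0528), at the same estimate. The call against lincRNA-p21 was lost without the Hnrnpk library of day 9 or 12 or any lincRNA-p21 library, with values of -1.29 to -1.09 and limma adjusted p up to 0.0987, without day 9 (-1.29, 0.209) and without day 12 (-1.14, 0.123).

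The measured depth of the knockdown differed between the single libraries of the 3 days. Its log2 differences from luciferase on days 6, 9 and 12 were -1.46, -0.66 and -0.87. Both sides of the ratio differed between days, since the day 12 signal was 113% of that of day 6 with the Hnrnpk hairpin and 74.8% with the luciferase hairpin. In the lincRNA-p21 arm the day 12 value was 89.5% of that of day 6. The slope of the arm difference was 0.30 per 3 days (SE 0.17, limma adjusted p 0.27), so a change of depth over the days did not pass the test, with 9.35% of genes called in that slope. With 1 library per arm and day, the low value of day 6 cannot be separated from the variation of a single library.

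None of the 4 paralogs was called higher or lower with the Hnrnpk hairpin relative to the luciferase arm in limma at an adjusted p under 0.05. Of all genes 12.5% were called. At an unadjusted p under 0.05 there was 1, Pcbp3, on the side of lower signal, against 3685 of 12541 genes. All 4 estimates were negative, where 49.8% of all genes had a negative estimate. The upper ends of the paralogs' 95% intervals correspond to folds of 1.03 for Pcbp1, 1.04 for Pcbp2, 0.909 for Pcbp3 and 1.14 for Pcbp4. Increases beyond those folds, averaged over days 6 to 12, lie outside the intervals. The intervals measure only how an arm difference varied over days, with 1 merged library per arm and day. They therefore do not bound an increase on a single day or in another culture. Protein and translation were not measured in these libraries.

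Pcbp1, the intronless member, had a signal of 11066, 10531 and 9902 on days 6, 9 and 12 with the Hnrnpk hairpin, 13879.5, 11582.5 and 11261.5 with the lincRNA-p21 hairpin, and 17231.5, 10740 and 10942.5 with the luciferase hairpin. The Hnrnpk arm was the lowest of the 3 on each day, as for 14.9% of all genes. It lay wholly below the lincRNA-p21 arm, as for 6.57% of all genes, and overlapped with luciferase. It held 64.2% of the luciferase value on day 6, 98.1% on day 9 and 90.5% on day 12. The difference was -0.27 (SE 0.14, 95% interval -0.58 to 0.04, limma adjusted p 0.223).

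Pcbp2 was the most abundant of the family in signal per kilobase of principal transcript, a ranking that depends on the transcript length used. Its signal was 25215.5, 20476 and 18577 with the Hnrnpk hairpin, 48035, 21446 and 21307.5 with the lincRNA-p21 hairpin, and 39323, 19883 and 25990 with the luciferase hairpin. The Hnrnpk arm was the lowest on days 6 and 12 and lay between the others on day 9. The difference was -0.36 (SE 0.19, 95% interval -0.78 to 0.06, limma adjusted p 0.235).

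Pcbp3 was the least expressed member, at 270, 179.5 and 205 with the Hnrnpk hairpin, 425, 165 and 188 with the lincRNA-p21 hairpin, and 428, 236 and 297 with the luciferase hairpin. Both knockdown arms lay below luciferase on every day, as for 11.2% of all genes, although the ranges of the arms overlapped and the lincRNA-p21 value of day 6 was 425 against 428. With the Hnrnpk hairpin the difference of -0.51 (SE 0.16) had a limma adjusted p of 0.0763. It passed without the lincRNA-p21 library of day 6 (-0.51, limma adjusted p 0.0369) and without day 6 (-0.45, limma adjusted p 0.0377). Without the day 6 library of the Hnrnpk arm the limma adjusted p was 0.178, and without that of the luciferase arm 0.079.

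Pcbp4, a p53-inducible member in human cells, was the flattest between arms. Its signal was 4644.5, 4453 and 4252 with the Hnrnpk hairpin, 5402.5, 4660.5 and 4395.5 with the lincRNA-p21 hairpin, and 5874.5, 4742 and 3707 with the luciferase hairpin. The Hnrnpk arm was lower than luciferase on days 6 and 9 and higher on day 12, at 79.1%, 93.9% and 115% of it. The mean difference of -0.08 (SE 0.12, limma adjusted p 0.708) turned positive without the day 6 library of the Hnrnpk arm (0.02), without that of the luciferase arm (0.03) or without day 6 (0.05). The slope of Pcbp4 was 0.27 per 3 days, with an unadjusted p of 0.0271 and a limma adjusted p of 0.118. None of the 5 genes was called in the slope against luciferase by limma. In that slope Pcbp4 alone was under an unadjusted p of 0.05, against 3814 of 12541 genes.

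**Figure D2:**
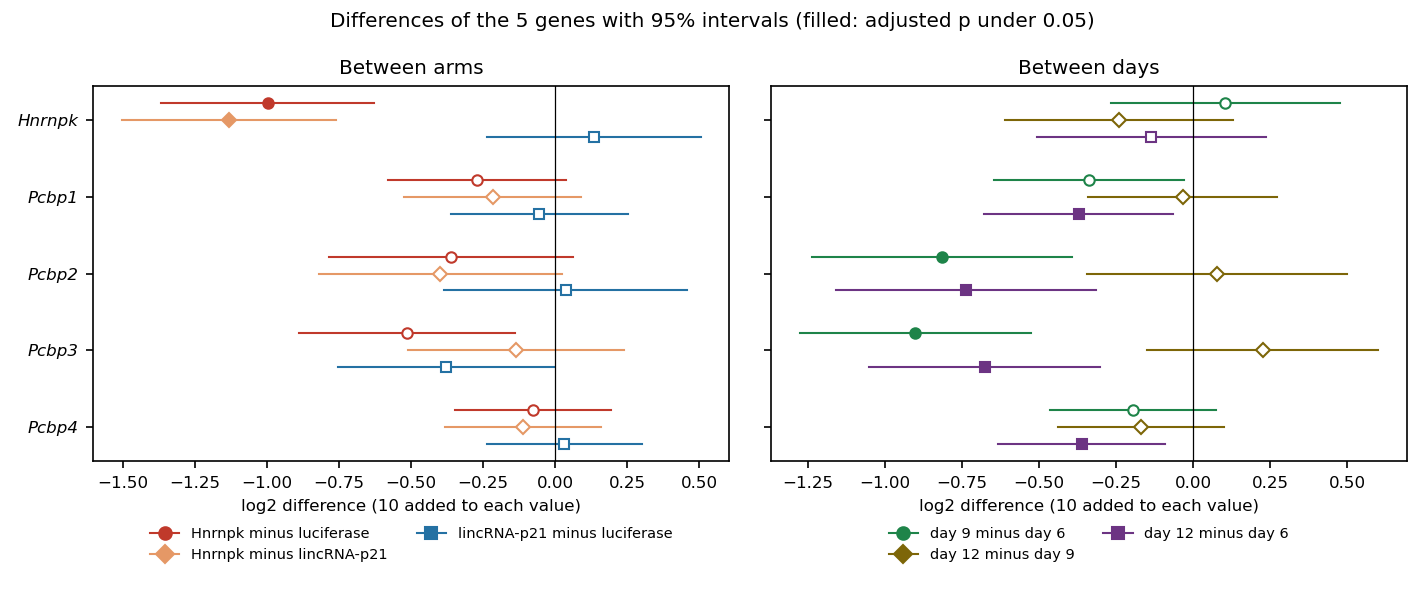
Log2 differences of the 5 genes with 95% intervals from limma, between arms (left) and between days (right), with filled symbols for an adjusted p under 0.05. Hnrnpk is filled in both comparisons of the Hnrnpk arm, at -0.997 and -1.13, and the paralogs are filled only between days.

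The lincRNA-p21 arm served as a second hairpin arm without a hairpin to Hnrnpk. Relative to luciferase none of the 5 genes was called by limma in it, where 0.00797% of all genes were called. At an unadjusted p under 0.05 was 1 of the 5, Pcbp3, against 1730 of 12541 genes. Hnrnpk itself was 99.7%, 111% and 119% of the same-day luciferase value on days 6, 9 and 12, a difference of 0.13 (SE 0.16, limma adjusted p 0.738). Pcbp1 differed by -0.05, Pcbp2 by 0.04 and Pcbp4 by 0.03 on the log2 scale, and Pcbp3 by -0.38 (SE 0.16, limma adjusted p 0.361). Both knockdown arms were set against the same luciferase libraries, so a high or low control value moves both. Between the Hnrnpk and lincRNA-p21 arms, the paralogs differed by -0.22 (Pcbp1), -0.40 (Pcbp2), -0.13 (Pcbp3) and -0.11 (Pcbp4), with limma adjusted p between 0.294 and 0.728. None of these paralog differences was under an unadjusted p of 0.05, against 2381 of 12541 genes.

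Levels of different genes were compared only per kilobase of each gene's principal transcript (2676 bases for Hnrnpk, 1830 for Pcbp1, 1499 for Pcbp2, 2013 for Pcbp3 and 2035 for Pcbp4). This assumes that the deposited signal was not already scaled by length, which the sources used here do not give. The order, and the shares of Hnrnpk given below, also depend on the transcript chosen for each gene. Coding transcripts ran from 516 to 3222 bases for Pcbp2 and from 379 to 2970 for Hnrnpk. Which of them gave the signal was not tested. In the luciferase arm the order was Pcbp2 (13260 to 26230 per kb over the days), Hnrnpk (8735 to 11680), Pcbp1 (5869 to 9416), Pcbp4 (1822 to 2887) and Pcbp3 (117 to 213). Of neighbours in that order, the ranges of Hnrnpk and Pcbp1 overlapped, though Hnrnpk was higher within each luciferase library. With the Hnrnpk hairpin, Hnrnpk was at 4241, 6359 and 4781 per kb on days 6, 9 and 12 and Pcbp1 at 6047, 5755 and 5411, so Hnrnpk stood below Pcbp1 on days 6 and 12. The lincRNA-p21 arm kept the luciferase order, with Hnrnpk between 10420 and 11640 and Pcbp1 between 6154 and 7584 per kb.

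The make-up of the family signal differed between the arms. Hnrnpk made up 14.4%, 22.7% and 19.3% of the summed signal per kb of the 5 genes on days 6, 9 and 12 with the Hnrnpk hairpin. The shares were 21.5%, 32.7% and 31.5% with the lincRNA-p21 hairpin and 23.2%, 31.8% and 25.7% with the luciferase hairpin. On each day the Hnrnpk arm had the lowest share. The 4 paralogs together summed to 25280, 21690 and 20000 per kb with the Hnrnpk hairpin, 42500, 23010 and 22620 with the lincRNA-p21 hairpin, and 38750, 21580 and 25290 with the luciferase hairpin. On day 9 the paralog sums of the 3 arms were close, and on days 6 and 12 that of the Hnrnpk arm was the lowest.

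Ratios within a library would not depend on the scaling if each library had been scaled by a single factor. The sources used here do not state this, and all 9 columns share a highest value of 118715. Ftl1 was at exactly 39250.5 on day 6 in both the Hnrnpk and the lincRNA-p21 arm. Near ranks also carried near values in different arms. Pcbp1 ranked 289 at 11066 (Hnrnpk hairpin, day 6) and 291 at 10942.5 (luciferase hairpin, day 12). A single factor for each library would not be expected to give such matches. The ratios, the shares per kb and the percents of luciferase may therefore depend on how the signal was normalized. Hnrnpk over Pcbp1 was 1.03, 1.62 and 1.29 on days 6, 9 and 12 with the Hnrnpk hairpin, 2.24, 2.59 and 2.48 with the lincRNA-p21 hairpin, and 1.81, 2.51 and 2.14 with the luciferase hairpin. Hnrnpk over Pcbp4 was 2.44, 3.82 and 3.01 with the Hnrnpk hairpin, 5.76, 6.43 and 6.34 with the lincRNA-p21 hairpin, and 5.32, 5.68 and 6.31 with the luciferase hairpin. For these 2 paralogs every ratio of the Hnrnpk arm lay below every ratio of the other arms. The same held for 71.9% of all genes set under Hnrnpk in this way (10 added to each value). Hnrnpk over Pcbp2 was 0.45, 0.83 and 0.69 with the Hnrnpk hairpin, 0.65, 1.40 and 1.31 with the lincRNA-p21 hairpin, and 0.79, 1.36 and 0.90 with the luciferase hairpin. For Pcbp2 the ratio was lowest with the Hnrnpk hairpin on each day, but the arms overlapped across days. The ratio to Pcbp3 was likewise lowest on each day with the Hnrnpk hairpin and overlapped across days, at 42.0 to 94.8 with the Hnrnpk hairpin, 73.3 to 182 with the lincRNA-p21 hairpin and 73.0 to 114 with the luciferase hairpin.

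**Figure D3:**
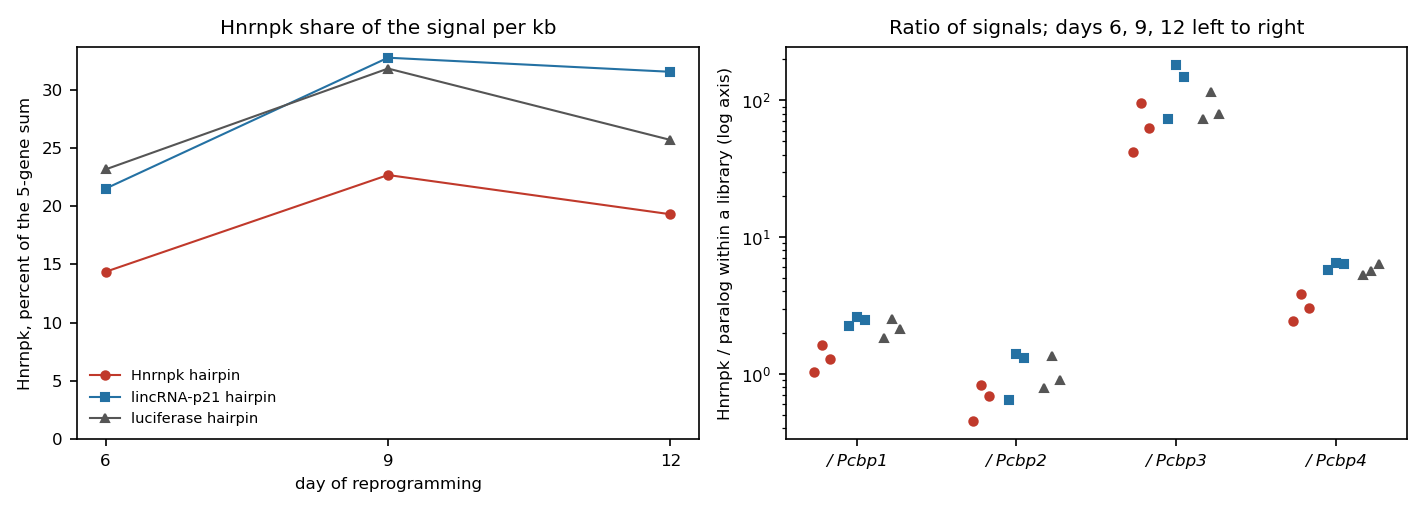
Left, Hnrnpk as a percent of the summed signal per kb of the 5 genes, by day and arm. Right, the ratio of Hnrnpk signal to that of each paralog within a library, on a log axis, with days 6, 9 and 12 from left to right in each arm. The Hnrnpk arm has the lowest share on each day, between 14.4% and 22.7%.

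The paralogs changed over the days of reprogramming, and Hnrnpk was not called in any of these comparisons. Between days 6 and 9, where limma called 39.9% of all genes (21% as lower), Pcbp2 fell by 0.82 (SE 0.19, limma adjusted p 0.00908) and Pcbp3 by 0.90 (SE 0.16, limma adjusted p 0.00347). Both were lower on day 9 than on day 6 in 3 of 3 arms, as were Pcbp1 and Pcbp4 and 32.8% of all genes. For Pcbp2, day 9 stood at 81.2% of day 6 with the Hnrnpk hairpin, 44.7% with the lincRNA-p21 hairpin and 50.6% with the luciferase hairpin. For Pcbp3 the percentages were 66.5%, 38.8% and 55.1% in the same arms. The Hnrnpk arm, which started lowest on day 6, had the smallest step for both genes, a difference that was not tested. Pcbp1 differed by -0.34 (limma adjusted p 0.0767), Pcbp4 by -0.19 (limma adjusted p 0.222) and Hnrnpk by 0.11 (limma adjusted p 0.636). The call of Pcbp2 was lost without the lincRNA-p21 library of day 9 (-0.75, limma adjusted p 0.0509) or the luciferase library of day 9 (-0.70, limma adjusted p 0.0582). Pcbp1 was called without the Hnrnpk library of day 6 (-0.46, limma adjusted p 0.0307).

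Between days 9 and 12 limma called 0.654% of all genes and none of the 5. None of the 5 was under an unadjusted p of 0.05, against 1769 of 12541 genes. Over the whole span from day 6 to day 12, in which 49.3% of genes were called (27% as lower), all 4 paralogs fell. The falls were 0.37 for Pcbp1 (SE 0.14, limma adjusted p 0.0477), 0.74 for Pcbp2 (SE 0.19, limma adjusted p 0.0107), 0.68 for Pcbp3 (SE 0.16, limma adjusted p 0.00918) and 0.36 for Pcbp4 (SE 0.12, limma adjusted p 0.0324). Hnrnpk differed by -0.14 (SE 0.16, limma adjusted p 0.517). Each paralog was lower on day 12 than on day 6 in 3 of 3 arms, as for 34.8% of all genes. Of the 5 genes 4 were thus called lower, against 27% of all genes, and Pcbp1 and Pcbp4 were near the threshold. Of 10 fits that left out a library or day 9, Pcbp1 kept its call in 1, that without the Hnrnpk library of day 6. Pcbp4 kept its call in 2, those without the Hnrnpk library of day 6 or of day 12. The others had limma adjusted p up to 0.143 for Pcbp1 without the luciferase library of day 12 and 0.133 for Pcbp4 without that library. Pcbp2 lost its call without the lincRNA-p21 library of day 6 (-0.54, limma adjusted p 0.0522) or day 12 (-0.61, limma adjusted p 0.0662), and Pcbp3 without that of day 12 (-0.55, limma adjusted p 0.0569).

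Across the 9 libraries pairs of paralogs had Pearson correlations of 0.56 to 0.91 on the log2 scale, and pairs with Hnrnpk 0.29 to 0.59. The correlation was 0.91 between Pcbp2 and Pcbp3, 0.85 between Pcbp1 and Pcbp2, and 0.83 between Pcbp1 and Pcbp4. For Hnrnpk the correlations were 0.59 with Pcbp1, 0.45 with Pcbp2, 0.41 with Pcbp4 and 0.29 with Pcbp3. Spearman's rho for the pair of Pcbp2 and Pcbp3 was 0.68, and the highest for Hnrnpk was 0.82 with Pcbp1. These are descriptions over 9 points that share arms, days and the authors' scaling.

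Genes with the most similar profile were ranked by Pearson correlation over the same 9 libraries among 12538 genes. Nearest to Hnrnpk were Phf7, a PHD finger gene (0.99), Hmbox1, a homeobox gene (0.99), Cyb5r1, a cytochrome b5 reductase (0.97), Galns, a lysosomal sulfatase (0.96), and Prkcb, a protein kinase C isoform (0.96). Prkcb had the widest range, at 196, 268 and 158.5 on days 6, 9 and 12 with the Hnrnpk hairpin, 668.5, 967 and 619.5 with the lincRNA-p21 hairpin, and 960, 811 and 678.5 with the luciferase hairpin. Nearest to Pcbp1 were Kcnh7 (0.97), Hs6st1 (0.97) and Homez (0.97), and nearest to Pcbp2 were Sympk (0.98), Rnf217 (0.97) and Phf8 (0.97). Pcbp3 was followed most closely by Lyrm1 (0.98), Dennd1a (0.97) and Papolg (0.96), and Pcbp4 by Gjc1 (0.98), Pitrm1 (0.97) and Med9 (0.97). No member of the family was among the nearest genes of another.

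Other proteins with KH domains were read from a list of 34, of which 31 were in the table and tested. With the Hnrnpk hairpin relative to luciferase, limma called 2 higher and 2 lower, where 5.58% of all genes were called higher and 6.94% lower, and the list's median difference was -0.06 against 0.001 for all genes. The called falls were Khdrbs3, a splicing regulator of the STAR family, at 284, 155.5 and 129 with the Hnrnpk hairpin and 490, 240.5 and 214 with the luciferase hairpin (-0.68, limma adjusted p 0.0107), and Nova2, a neuronal splicing regulator, at 607, 431 and 366.5 against 1003, 550.5 and 594.5 in luciferase (-0.58, limma adjusted p 0.0144). Pno1, which helps assemble the small ribosomal subunit, was higher at 1718.5, 1495 and 1372 with the Hnrnpk hairpin against 1401.5, 1163 and 855.5 in luciferase (0.44, limma adjusted p 0.0332).

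Dppa5a, a KH-type protein of pluripotent cells, was the other called rise, at 0.5, 437 and 2037.5 with the Hnrnpk hairpin against 1, 10 and 44 in luciferase (3.22, limma adjusted p 0.0442). It is also 1 of the 10 pluripotency markers, all of which were in the table. Their summed signal ranged from 384 to 11040 with the Hnrnpk hairpin and from 378.5 to 1234.5 with the luciferase hairpin, with Lin28a at 0 on day 6 with the Hnrnpk hairpin and Dppa4 at 0 on day 6 in luciferase. The part of those cells in the Dppa5a difference was not tested. Khdrbs3 and Nova2 kept their calls in 8 of 9 fits that left out a library (lost without the luciferase library of day 9 for Khdrbs3 and without the Hnrnpk library of day 12 for Nova2), while Pno1 and Dppa5a kept theirs in 2 of 9, those without the day 6 library of the Hnrnpk or the luciferase arm. Between days 6 and 12 the KH list moved mostly down, with 5 called higher and 16 lower of 31 (22.3% and 27% of all genes) and a median of -0.34, against -0.04 for all genes.

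**Figure D4:**
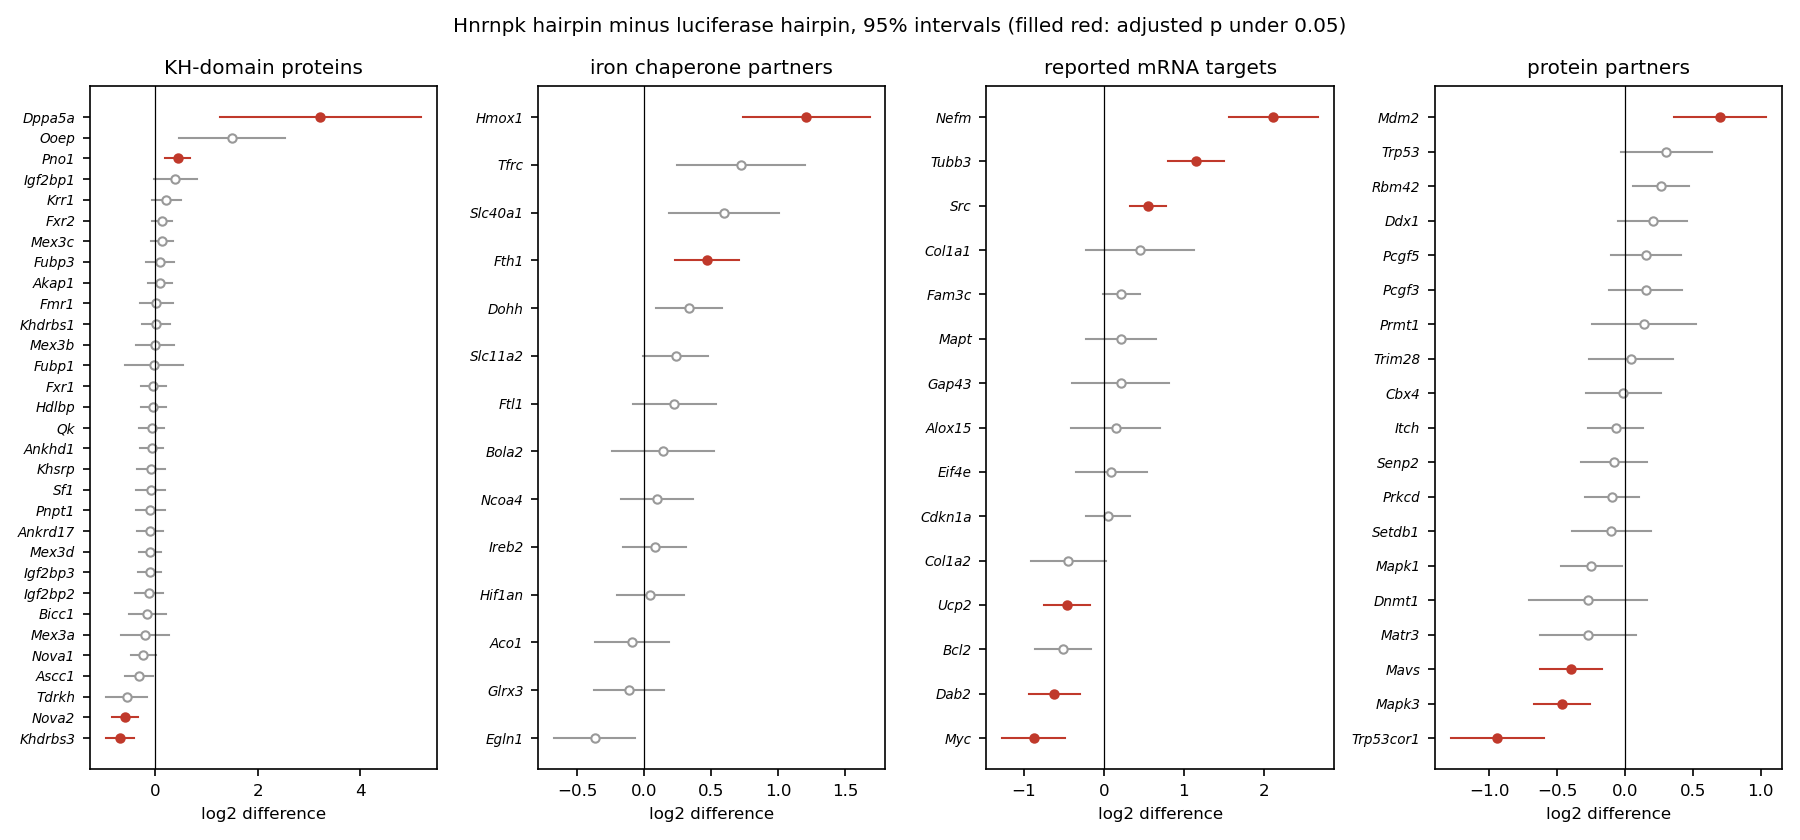
Log2 differences with 95% intervals between the Hnrnpk and luciferase arms for the tested genes of 4 lists, ordered by size in each panel, with filled red points for a limma adjusted p under 0.05. Of the genes tested, 4 of 31 were called in the KH list, 2 of 14 in the iron list, 6 of 15 among mRNA targets and 4 of 19 among partners, against 12.5% of all genes.

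The iron list holds genes that PCBP1 and PCBP2 supply with iron or that handle iron beside them, and all 14 were tested. Limma called 2 higher and 0 lower, where 5.58% of all genes were called higher and 6.94% lower. The list's median was 0.18, against 0.001 for all genes. With the lincRNA-p21 hairpin the median of the list was 0.19 relative to luciferase. Hmox1, the heme-degrading oxygenase that frees iron, was at 2609.5, 2022.5 and 3684.5 with the Hnrnpk hairpin and 786, 1149 and 1713 with the luciferase hairpin (1.21, SE 0.21, limma adjusted p 0.00925). The Hnrnpk arm lay wholly above luciferase, as for 6.87% of all genes. In the lincRNA-p21 arm Hmox1 stood at 2520, 1761.5 and 2523, 0.95 above luciferase (limma adjusted p 0.113). Fth1, the ferritin heavy chain that stores iron, was at 15249.5, 8855.5 and 11096.5 with the Hnrnpk hairpin and 10713, 6359 and 8328.5 in luciferase (0.47, limma adjusted p 0.0238). Hmox1 kept its call without any single library and lost it without day 9 (limma adjusted p 0.0756). Fth1 kept its call in 4 of 9 fits, losing it without a day 9 library of any arm or the day 12 library of the Hnrnpk or the lincRNA-p21 arm. Among the genes not called, 4 were under an unadjusted limma p of 0.05, named after their values were seen. They were Tfrc (0.72), Slc40a1 (0.60) and Dohh (0.33) above 0 and Egln1 (-0.37) below. Of all genes, called ones included, 3685 of 12541 were under that p. Relative to luciferase, the lincRNA-p21 arm differed by 0.69, 0.39, 0.24 and -0.15 in the same order, none called by limma. Between the Hnrnpk and lincRNA-p21 arms the differences were 0.04, 0.21, 0.10 and -0.22, also not called.

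Of 16 mRNAs reported as bound or regulated by hnRNP K or a PCBP, 15 were tested, with 3 called higher and 3 called lower, against 5.58% and 6.94% of all genes. The median was 0.15, against 0.001 for all genes, and 0.11 with the lincRNA-p21 hairpin. Nefm, a neurofilament subunit, was at 564, 186 and 142 with the Hnrnpk hairpin, 195, 103 and 96.5 with the lincRNA-p21 hairpin, and 65.5, 43.5 and 42 with the luciferase hairpin (Hnrnpk minus luciferase 2.12, SE 0.24, limma adjusted p 0.00342). Tubb3, a neuronal tubulin, was at 1630, 614 and 359.5 with the Hnrnpk hairpin, 1878, 709 and 328 with the lincRNA-p21 hairpin, and 839, 210.5 and 174.5 with the luciferase hairpin (1.15, SE 0.16, limma adjusted p 0.00462). Both were higher than luciferase on each day in either knockdown arm, as were 9.81% of all genes. Both are also neural markers, of which 6 of 7 were in the table, with none at 0. With the Hnrnpk hairpin relative to luciferase, limma called 3 of these 6 higher and 1 lower, against 5.58% and 6.94% of all genes. The summed signal of the 6, which includes Nefm and Tubb3, ran from 1996.5 to 5572.5 with the Hnrnpk hairpin. It ran from 1863 to 6739 with the lincRNA-p21 hairpin and from 1312 to 3285 with the luciferase hairpin. The part of neural-like cells in the Nefm and Tubb3 differences was not tested.

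Src, the tyrosine kinase whose mRNA hnRNP K binds, was the other gene called higher, at 1980, 2019 and 2407.5 with the Hnrnpk hairpin against 1229.5, 1417.5 and 1727.5 in luciferase (0.56, limma adjusted p 0.0107). Among the falls, Myc had the largest difference, at 27901, 17713 and 16340 with the Hnrnpk hairpin and 56808.5, 26978 and 32439 in luciferase (-0.87, SE 0.17, limma adjusted p 0.0148). The cells carried a c-Myc plasmid, and plasmid and chromosomal transcripts cannot be told apart in the Myc row. Dab2, an endocytic adaptor, differed by -0.62 (limma adjusted p 0.0239), and Ucp2, a mitochondrial carrier, by -0.46 (limma adjusted p 0.0472). Relative to luciferase, the lincRNA-p21 arm differed by 0.11 for Src, -0.60 for Myc, -0.52 for Dab2 and -0.44 for Ucp2, none called by limma. Between the Hnrnpk and lincRNA-p21 arms the differences were 0.45, -0.28, -0.10 and -0.02 in the same order, also not called. Nefm and Tubb3 kept their calls in all 9 fits that left out a library, Myc and Src in 7, Dab2 in 6 and Ucp2 in 1. Ucp2 was called only without the day 6 library of the Hnrnpk arm. The calls of Myc and Dab2 were lost without the Hnrnpk library of day 9 or 12, that of Src without the Hnrnpk or luciferase library of day 9, and that of Dab2 also without the luciferase library of day 9.

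The partner list names 20 proteins or RNAs described in complexes with hnRNP K or a PCBP. Of these 19 were tested, since the symbol Atf7ip stands for more than 1 row, and 1 was called higher and 3 lower, against 5.58% and 6.94% of all genes. The median was -0.07, against 0.001 for all genes. Trp53cor1, the lincRNA-p21 gene, was at 131, 137 and 119.5 with the Hnrnpk hairpin, 90.5, 122 and 97 with the lincRNA-p21 hairpin that targets it, and 286.5, 237 and 250 with the luciferase hairpin. With the Hnrnpk hairpin it fell by 0.94 (SE 0.15, limma adjusted p 0.00752), and the arm lay wholly below luciferase, as for 8.52% of all genes. Mdm2, the ubiquitin ligase of p53 and, in human cells, of hnRNP K, was higher at 7434, 4339.5 and 4426 with the Hnrnpk hairpin against 3241, 3188 and 3224 in luciferase (0.70, limma adjusted p 0.0201). Mapk3, the kinase ERK1 that phosphorylates hnRNP K, was lower (-0.46, limma adjusted p 0.0145), as was Mavs, the antiviral adaptor whose turnover PCBP1 and PCBP2 promote (-0.40, limma adjusted p 0.0345). The lincRNA-p21 arm differed from luciferase by 0.38 for Mdm2, -0.49 for Mapk3 and -0.05 for Mavs, none called by limma. Between the Hnrnpk and lincRNA-p21 arms the differences were 0.32, 0.03 and -0.35 in the same order, also not called. Trp53cor1 kept its call in all 9 fits that left out a library, Mdm2 in 7, Mapk3 in 6 and Mavs in 2. The calls of Mdm2 and Mapk3 were lost without the Hnrnpk or the luciferase library of day 9, that of Mapk3 also without the Hnrnpk library of day 12, and that of Mavs was kept only without a day 6 library of the Hnrnpk or luciferase arm. Without day 9, no called gene of the 4 lists stayed called by limma.

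Genes that overlap or flank the members were read because the sources used here do not state whether reads were counted by strand. Rmi1, on the opposite strand of Hnrnpk, was between 282 and 375 with the Hnrnpk hairpin and between 320 and 375.5 with the luciferase hairpin, far under the Hnrnpk signal in every library. Map3k12, which overlaps Pcbp2 on the other strand, was between 465.5 and 541 with the Hnrnpk hairpin and between 483.5 and 575 in luciferase. An unnamed antisense gene model at Pcbp1 was between 75 and 107.5 with the Hnrnpk hairpin and between 100 and 141 in luciferase. Reads within the overlaps could belong to either gene, so the values of Hnrnpk, Pcbp1 and Pcbp2 are uncertain there.

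Ntrk2, the nearest table gene beyond Hnrnpk on its right, did not pass with the Hnrnpk hairpin (-0.14, limma adjusted p 0.735). Asprv1, a skin protease gene beside Pcbp1, rose by 1.08 (limma adjusted p 0.0139). Keratinocyte markers, of which 5 of 7 were in the table and none at 0, summed to between 2095.5 and 11697 with the Hnrnpk hairpin and between 1043.5 and 4305 with the luciferase hairpin, and their part in the Asprv1 difference was not tested. Tarbp2, a Dicer partner beside Pcbp2, rose by 0.65 (limma adjusted p 0.0118). Prr13, on the other side of Pcbp2, fell by 0.51 (limma adjusted p 0.027), and Slc19a1, the folate carrier beside Pcbp3, fell by 0.76 (limma adjusted p 0.00759). Col6a1 beside Pcbp3 (0.23) and Abhd14b (-0.15) and Parp3 (0.26) beside Pcbp4 did not pass, nor did either of the 2 unnamed gene models beside Hnrnpk and Pcbp1. Of all genes 12.5% were called in this comparison. The lincRNA-p21 arm differed from luciferase by 0.39 for Asprv1, 0.55 for Tarbp2, -0.14 for Prr13 and 0.03 for Slc19a1, none called by limma.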

How the data were processed

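The members and gene lists were chosen with earlier results of these data known, so no list is independent evidence. RNA of 9 libraries (3 arms by 3 days, 1 each) was measured. The authors deposited normalized signal per gene. RSEM 1.2.12, Bowtie 1.0.1 and mm10 are named, per the submitters' processing notes, without their roles. The sources used here do not state how the signal was scaled. Its values move in steps of 0.5 and all 9 columns share a highest value of 118715, which can hide shifts common to all genes. No counts were available, so no count test was used. Differences were tested in R 4.3.3 with limma 3.58.1 on log2(signal + 10), for the 12541 genes with a mean of at least 20, with terms for arm and day (4 residual degrees of freedom) and an intensity trend. Slopes used a model with 2. P-values were adjusted by Benjamini-Hochberg at 0.05. Since replicates were merged before deposition, p-values measure only spread between days or arms, which may be technical. Annotation and transcripts came from GENCODE M21. The longest principal coding transcript gave lengths. The script was tested on simulated data.

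The genes named were the 5 members. From each list came the called members, up to 4 per direction. Further genes were the 5 of nearest profile to Hnrnpk and the 3 nearest to each paralog, and the nearest and overlapping table genes. Alternatives were another pseudocount (1 or 50), another filter, rescaled columns, no trend, other models and leaving out each library or day. There were 0 value columns outside the 9 libraries.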

Additional observations from a re-analysis of the deposited data

Results flagged for a closer look

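Between days 6 and 9 Hnrnpk moved in opposite directions in 2 arms: the log2 change was 0.584 in the Hnrnpk hairpin arm (11349 on day 6 and 17016 on day 9) and -0.213 in the luciferase arm (31243 on day 6 and 26944 on day 9). The lincRNA-p21 arm changed by -0.055. The difference between the arms at this step was not tested, because each arm has 1 library per day.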

How the results depend on the processing

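Values below are log2 differences unless they are counts. The fall of Hnrnpk against luciferase was -0.997 with day left out of the model (limma adjusted p 0.0979) and -0.997 with the Hnrnpk and luciferase arms only (limma adjusted p 0.0528), neither past the threshold. It ranged from -1.165 to -0.766 over the fits leaving out a library or a day. Against lincRNA-p21 it was -1.132 with day left out of the model (limma adjusted p 0.285), and -1.294 to -0.935 over the leave-outs. Leaving out a library or a day gave -0.608 to -0.353 for Pcbp3 and -0.214 to 0.053 for Pcbp4, Hnrnpk minus luciferase, and -0.261 to 0.117 for Pcbp3, Hnrnpk minus lincRNA-p21. For lincRNA-p21 minus luciferase it gave -0.155 to 0.103 for Pcbp1, -0.159 to 0.199 for Pcbp2 and -0.088 to 0.137 for Pcbp4. For day 9 minus day 6 the ranges were -0.092 to 0.255 for Hnrnpk, -0.458 to -0.181 for Pcbp1 and -1.018 to -0.62 for Pcbp2. For day 12 minus day 9 they were -0.135 to 0.046 for Pcbp1 and -0.04 to 0.262 for Pcbp2. For day 12 minus day 6 they were -0.332 to 0.015 for Hnrnpk, -0.492 to -0.215 for Pcbp1, -0.94 to -0.541 for Pcbp2, -0.835 to -0.459 for Pcbp3 and -0.454 to -0.241 for Pcbp4. In that comparison Pcbp1 was -0.33 with columns rescaled by median ratio and -0.372 with arm left out of the model, and Pcbp4 was -0.321 with columns rescaled, none called. With day left out of the model, 0 genes were called in either direction in the KH, iron, mRNA target and partner lists. With the Hnrnpk and luciferase arms only, the KH list had 0 higher and 0 lower, the iron list 1 higher, the mRNA targets 0 lower, and the partners 0 higher and 1 lower. The KH list had 1 higher with 1 added before the log2, 1 with 50 added and 1 without the trend. Leaving out a library or a day gave 0 to 5 higher and 0 to 2 lower in the KH list and 0 to 5 higher in the iron list. It gave 0 to 5 higher and 0 to 5 lower among mRNA targets, and 0 to 4 higher and 0 to 3 lower among partners. Fewer libraries or fewer terms also change the error of the model, and the cause of each lost call was not tested. Over all genes, 1570 were called for Hnrnpk minus luciferase, against 1 with day left out, 330 with the 2 arms only, 25 without day 9 and 3001 without day 6. The 36 ratios within libraries moved by less than their spread over days when 10 was added. No paired analysis was possible because replicates of an arm and day were merged into 1 library, while day itself is a term of the model. Unknown depth limits the precision of Pcbp3, the member with the lowest signal.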
